A study of Mus musculus with 33 samples.

Results

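The high endothelial venule genes were 9 members, Glycam1, Chst4, Fut7, Madcam1, Enpp2, Cd34, Gcnt1, Ltbr and Chst2, taken by gene symbol from the 56414 rows of the expression table, and each matched 1 row. Bulk RNA sequencing was done on tumour-free C57Bl/6 mice, all without a transgene or tumour named in the labels, to explore how nicotinamide (NAM, a form of vitamin B3) acts on lymphoid organs. Untreated mice were compared with mice given water with 0.5% NAM, over 1 day, 3 days or 14 days. The 33 libraries comprised 20 labelled spleen, 5 in each of the 4 groups, and 13 labelled lymph node, among which the untreated group held 3, the 1-day group 2 and the 3-day and 14-day groups 4 each. The study's general methods give female mice and, over all its experiments, a range of ages in weeks. The age of these animals, the site of the nodes and whether an animal gave both organs are not in the labels. Nothing in the labels says that 2 replicates came from separate animals, so p-values measure the spread between these samples.

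High endothelial venules are postcapillary venules of lymph nodes and Peyer's patches through which lymphocytes leave the blood, and the spleen is not known to have them. Their endothelial cells carry sialomucins whose O-linked sugars are fucosylated, sialylated and sulphated, and lymphocytes bind this sugar as they roll along the vessel wall. The mucins are scaffolds, the transferases finish the sugar, autotaxin made by the same cells acts on transmigration, and lymphotoxin beta receptor signalling maintains the vessels.

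The tissue labels went against the markers. Spic, a transcription factor of red pulp macrophages, had a normalised count of 774.3 to 1295 in the libraries labelled spleen and of 6117 to 10490.6 in those labelled lymph node. Nkx2-5, a transcription factor of the spleen's mesenchyme, was at 0 in the 20 libraries labelled spleen and at 167 to 267 in those labelled lymph node. Glycam1 was above Spic in every library labelled spleen and in none of the 13 labelled lymph node, so that 33 of 33 libraries went against their label in this order. Groups are therefore called by their label throughout. Depth was 18325061 to 54830743 reads in libraries labelled spleen, with the 5 at 3 days from 43632016 to 54830743, and 30424968 to 46733974 in those labelled lymph node. In the library labelled spleen of 3-day replicate 1, the second principal component lay at -17.4, among the untreated libraries (-38.0 to -13.2) and apart from the other 3-day libraries (11.1 to 21.6). In the library labelled lymph node of 1-day replicate 1, 7 acinar pancreas genes summed to 111101 normalised counts against 628 to 1270.3 in the other 12.

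Of the 9 genes, Glycam1 had the highest ratio between the labels. It encodes a secreted mucin of these vessels (mm10, chr15:103562762-103565081) and had normalised counts (reads divided by a library size factor) of 184773, 126739, 214210, 128854 and 134689 in untreated replicates 1 to 5 labelled spleen. In the 3 untreated libraries labelled lymph node it had 10.2, 8.82 and 2.21, from 10, 8 and 2 reads. The ratio of the means was 22297, and the lowest library labelled spleen (108167) lay far above the highest labelled lymph node (12.4). Normalised counts were set across labels although the labels were scaled separately, so the ratios are a description with no test, and the same ratio on reads scaled to the library total was 25548. In bulk tissue, fewer cells of a type and less RNA per cell cannot be told apart.

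Cd34, a sialomucin of vascular endothelium and blood progenitors (chr1:194938821-194961292), had untreated means of 2153 ± 145 (SD, n = 5) in spleen-labelled libraries and 536 ± 46.8 (SD, n = 3) in node-labelled libraries, a ratio of 4.02. Madcam1 (chr10:79664573-79668536), the vascular ligand of the integrin made by Itga4 and Itgb7 and known from mucosal venules and the marginal sinus of the spleen, ran the other way. Its untreated mean was 298 ± 75.5 (SD, n = 5) in spleen-labelled libraries and 802 ± 157 (SD, n = 3) in node-labelled libraries, 2.69 times as high. The highest library labelled spleen had 402 and the lowest labelled lymph node had 577.

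Among the transferases, Chst4 (chr8:110029075-110039740), the sulphotransferase largely restricted to high endothelial cells, had untreated counts of 1219, 815, 1375, 784 and 901 in spleen-labelled libraries and 6.12, 8.82 and 15.5 in node-labelled libraries, a ratio of the means of 100.5. Fut7 (chr2:25423242-25426374), the fucosyltransferase of selectin ligands in venules and leukocytes, had a ratio of 8.98, with 1013 ± 239 (SD, n = 5) against 113 ± 17.1 (SD, n = 3). Chst2 (chr9:95400933-95407270), a more widely expressed sulphotransferase of the same family, had a ratio of 4.00, with 1758 ± 255 (SD, n = 5) against 439.5 ± 67.1 (SD, n = 3). Gcnt1 (chr19:17326136-17372846), which branches O-linked sugars and is used by many leukocytes, had 2233 ± 177 (SD, n = 5) against 2847 ± 193 (SD, n = 3), a ratio of 0.784. The 4 transferases thus spanned ratios from 100.5 to 0.784, and only Gcnt1 overlapped between labels over the 33 libraries, at 1651 to 3016 against 2431 to 3213.

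Enpp2 (chr15:54838901-54920146), which encodes autotaxin, the secreted enzyme that makes lysophosphatidic acid, had 17762 ± 2320.3 (SD, n = 5) in spleen-labelled libraries and 3482 ± 369 (SD, n = 3) in node-labelled libraries, a ratio of 5.10. Ltbr (chr6:125306571-125313870), the lymphotoxin beta receptor of stromal, endothelial and myeloid cells, had 847 ± 135 (SD, n = 5) against 631 ± 64.3 (SD, n = 3), a ratio of 1.34, and its libraries overlapped between labels. Over all 33 libraries, 7 of the 9 genes did not overlap between the labels, 6 higher in spleen-labelled libraries and Madcam1 lower. Of all features with a mean of at least 10 in either label, 31.8% did not overlap (13.4% higher and 18.3% lower in spleen-labelled libraries), and of those at that mean in both labels, which leaves out Glycam1, 32.2% did not. Summed counts of 10 general blood endothelial markers were 22624.5 to 27226.6 in the groups labelled spleen and 13615 to 16676 in those labelled lymph node, with none of the 10 at 0. The largest part of either sum was Pecam1, with untreated means of 10800 in spleen-labelled and 6148 in node-labelled libraries. Single markers ran from 5.01 times as high in spleen-labelled libraries for Cdh5 to a ratio of 0.763 for Cldn5. Summed counts of adipocyte markers differed more, at 34511.8 to 444449 against 3052.5 to 4584. Most of the node-labelled sum was Pnpla2, Lipe and Lpl, with untreated means of 2501, 815 and 799. Adipoq had an untreated mean of 32.7 there and of 11342 in spleen-labelled libraries. The part of blood endothelial cells or adipocytes in the ratios of the members was not tested.

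**Figure D1:**
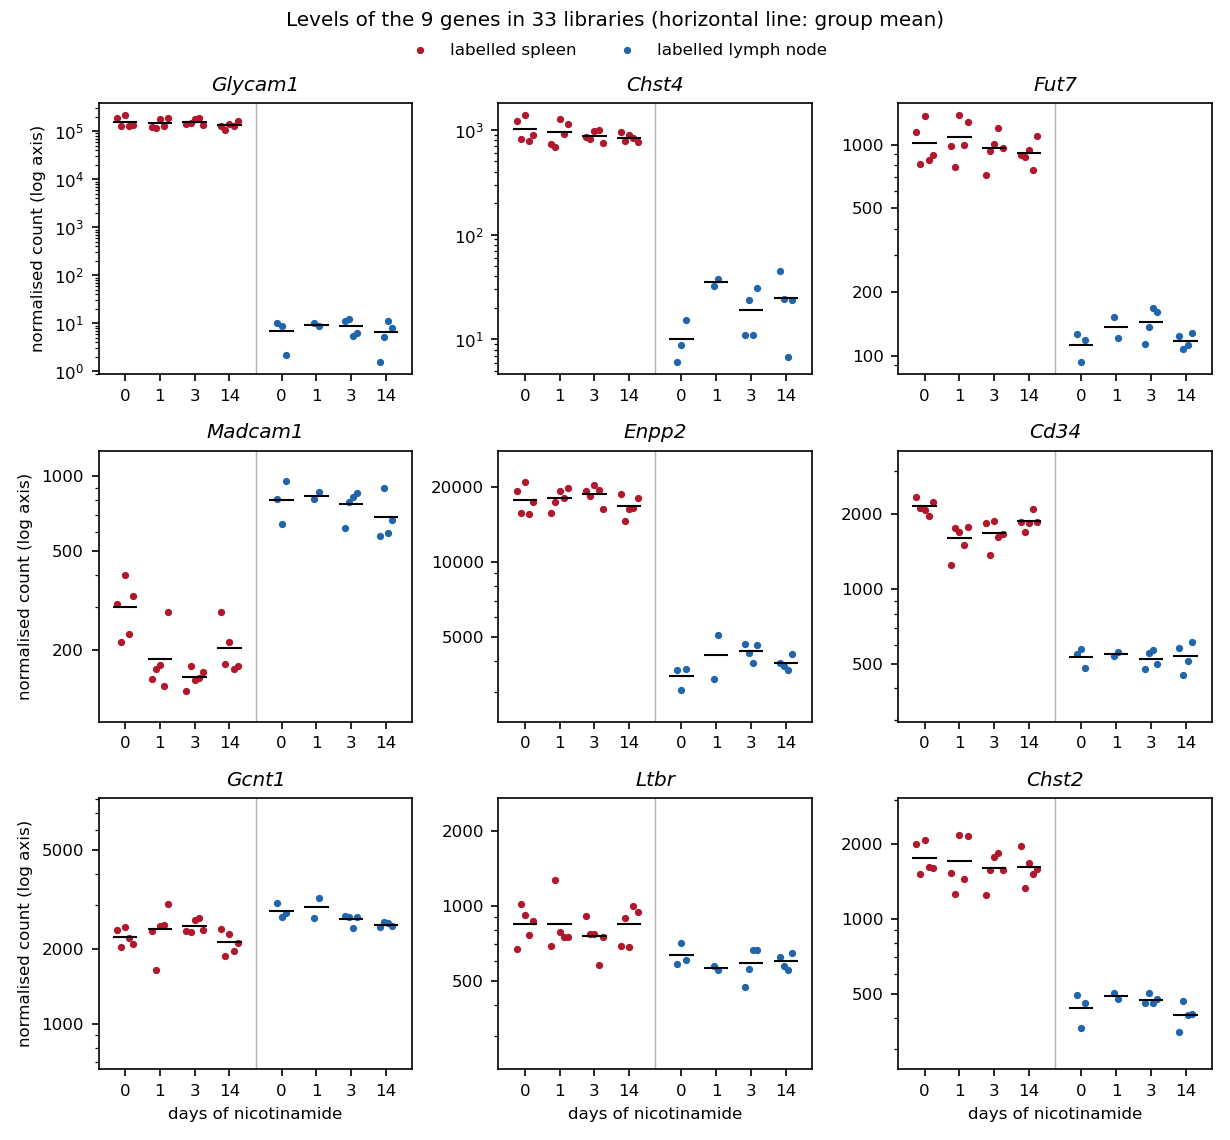
Normalised count (log axis) of each gene against days of NAM, with 1 point per library (red, labelled spleen, n = 5 per group; blue, labelled lymph node, n = 3, 2, 4 and 4) and a line at the group mean. Glycam1 lies between 108167 and 214210 in libraries labelled spleen and between 1.59 and 12.4 in those labelled lymph node, Madcam1 is the gene higher in node-labelled libraries without overlap, and Gcnt1 and Ltbr overlap.

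Other genes of the same vessels and pathway were not uniformly higher in spleen-labelled libraries. Of 5 further scaffold genes, all had a higher untreated mean there, from 2.08 times for Parm1 to 9.23 times for Emcn, which encodes endomucin. Among 8 further glycosylation genes, B3gnt3, which extends O-linked sugars, had a ratio of 5.24 and Fut4, another fucosyltransferase of leukocytes, of 0.965. Ackr1, the atypical chemokine receptor of venules, had a ratio of 6.37, and Vcam1, an adhesion molecule also found on spleen macrophages, was 4.29 times as high in node-labelled libraries. Ltb, which encodes a ligand subunit of the lymphotoxin beta receptor, was close between labels, at 0.951.

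Whether NAM changed the members was asked with limma on log2(normalised count + 1), fitting the 4 groups of a label together and adjusting over every feature tested. At 1 day of NAM in libraries labelled spleen, 2 of the 9 genes, Madcam1 and Cd34, fell and none rose. Over all features 16.6% passed at an adjusted p of 0.05, 8.05% in the lower direction, so a count of 2 in 9 is near that background and is no result about these genes as a group. At 3 days Madcam1 and Cd34 again fell and none rose, against 5.55% of all features in either direction and 2.74% lower. The median log2 change of the 9 genes was -0.06 at 1 day and -0.14 at 3 days, beside 0.01 and 0.00 over all features. Trimmed-mean scaling moved the split of all features at 3 days from 514 higher and 499 lower to 736 higher and 308 lower.

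For Madcam1, untreated replicates 1 to 5 labelled spleen had normalised counts of 306, 216, 402, 234 and 331. At 1 day the counts were 154, 168, 175, 144 and 285, so 4 of 5 libraries lay below all untreated ones and replicate 5 lay among them. At 3 days they were 137, 173, 152, 154 and 164, all below the lowest untreated library. The log2 change was -0.69 (SE 0.19, adjusted p = 0.0177) at 1 day and -0.89 (SE 0.19, adjusted p = 0.0133) at 3 days. Madcam1 thus fell by 38.0% at 1 day and fell by 46.2% at 3 days. At 14 days the counts were 285, 176, 217, 169 and 173, with 3 of 5 below the untreated range, and the log2 change of -0.54 (95% interval -0.94 to -0.14) had an adjusted p of 1 in limma. Group means ran from untreated through 14 days and 1 day to 3 days, and no neighbours in this order passed the test. Libraries held 104 to 321 Madcam1 reads. The call at 1 day was lost without 1-day replicate 4 (adjusted p = 0.0505), with a score of adipocyte markers (their mean log2 value) as a covariate (-0.47, adjusted p = 0.0512) or with just the groups compared in the fit (adjusted p = 0.0541). Without 3-day replicate 1, the change at 3 days was -0.85 (adjusted p = 0.00765).

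For Cd34, the untreated libraries labelled spleen had 2344, 2114, 2085, 1973 and 2250.1. They were followed by 1250.2, 1757, 1703, 1514 and 1789 at 1 day and 1846, 1379, 1882, 1625 and 1662 at 3 days, all 10 below every untreated library. The log2 change was -0.44 (SE 0.10, adjusted p = 0.00532) at 1 day and -0.36 (SE 0.10, adjusted p = 0.0337) at 3 days. Cd34 thus fell by 26.1% at 1 day and fell by 22.3% at 3 days. At 14 days the counts were 1863, 1702, 1841, 2103 and 1863, 4 of 5 below the untreated range, with a log2 change of -0.20 (95% interval -0.40 to 0.00, adjusted p = 1 in limma). Group means ran from untreated through 14 days and 3 days to 1 day, and no neighbours passed here either. The call at 3 days was lost in 7 of 20 fits that left out 1 library, with adjusted p up to 0.102 without 3-day replicate 2, and it was 0.0104 without 3-day replicate 1. This call was also lost in limma with no filter (adjusted p = 0.0585) and with just the groups compared in the fit (adjusted p = 0.0587). Of 5 genes of blood progenitors, cells that also express Cd34, 4 were tested and none passed at 1 or 3 days, with summed counts of 812 to 1345 untreated, then 921 to 1459 after 1 day and 816 to 1261 after 3 days.

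**Figure D2:**
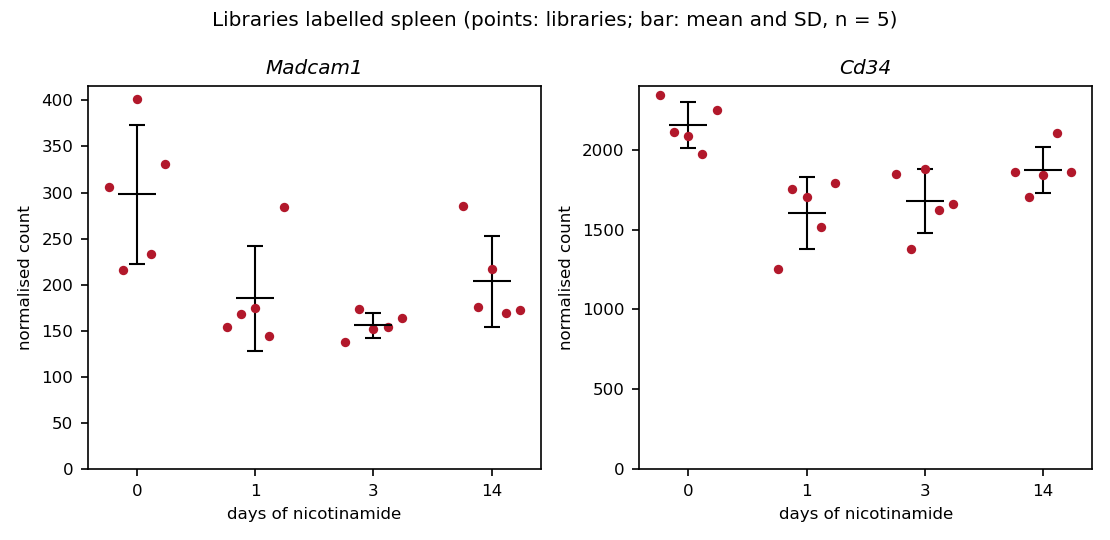
Normalised count of Madcam1 (left) and Cd34 (right) against days of NAM in libraries labelled spleen, 1 point per library with the mean and SD of 5. At 1 day 4 of 5 Madcam1 libraries and at 3 days all 5 lie below the untreated range of 216 to 402, and every Cd34 library at 1 and 3 days lies below the lowest untreated one at 1973.

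The 2 genes that fell are shown with the 250 bases before their RefSeq start (GRCm38.p6, the build of mm10), read 5′ to 3′ on the strand of the gene: Madcam1 at chr10:79664309-79664558 on the plus strand and Cd34 at chr1:194938571-194938820 on the plus strand. Capitals mark matches to GGGANNNNCC, a form of the site bound by NF-kappaB factors, searched on both strands.
Madcam1: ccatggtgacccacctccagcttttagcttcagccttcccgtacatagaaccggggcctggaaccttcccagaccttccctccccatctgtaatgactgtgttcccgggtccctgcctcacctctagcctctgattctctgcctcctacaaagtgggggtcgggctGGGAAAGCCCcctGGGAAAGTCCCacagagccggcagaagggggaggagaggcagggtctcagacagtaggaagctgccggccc
Cd34: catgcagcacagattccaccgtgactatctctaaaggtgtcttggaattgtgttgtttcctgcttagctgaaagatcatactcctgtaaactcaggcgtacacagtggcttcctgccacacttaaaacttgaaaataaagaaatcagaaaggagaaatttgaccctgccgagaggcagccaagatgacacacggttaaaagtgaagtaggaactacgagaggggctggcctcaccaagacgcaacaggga
Madcam1 held matches at bases 84 to 75 and 71 to 62 before the start, and on the minus strand at 70 to 61, where it overlaps the previous match. Cd34 held none. Such a match was in 2 of the 11 start windows of the 8 members in the table, the other in Chst2, and in 17.6% of 32851 windows of the same length. AGGTCA, the half-site of orphan nuclear receptors such as the Nr2f2 product, was in 0 of the 11 and in 14.0% of all.

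The other 7 genes did not pass at any duration in spleen-labelled libraries in the fit without covariates. Glycam1 had 123952, 117039, 181643, 131367 and 192173 at 1 day, 140601, 147738, 178975, 190614 and 134977 at 3 days and 128745, 108167, 141887, 129894 and 163432 at 14 days, which overlapped the untreated libraries. Its 95% intervals were -0.45 to 0.29, -0.34 to 0.40 and -0.58 to 0.16 on the log2 scale. Chst4 had 728, 689.7, 1258, 918 and 1145 at 1 day, 862, 819.7, 979, 1001 and 754 at 3 days and 949.9, 776, 898, 837 and 765 at 14 days, with intervals of -0.46 to 0.24, -0.53 to 0.17 and -0.59 to 0.11. Fut7 ranged over 811 to 1370.3 untreated, then 786 to 1375 after 1 day, 715 to 1199.7 after 3 days and 754 to 1095 after 14 days. Its log2 changes of 0.10, -0.06 and -0.13 were within the spread.

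Enpp2 had the narrowest intervals of the 7, -0.17 to 0.22 after 1 day, -0.11 to 0.28 after 3 days and -0.27 to 0.12 after 14 days, around counts of 15546 to 20929.9 untreated and 14619 to 18743 at 14 days. Chst2 ranged over 1516 to 2069 untreated and 1262 to 2169 at 1 day, with log2 changes of -0.06, -0.14 and -0.12 at 1, 3 and 14 days. Gcnt1 ranged over 2036 to 2441 untreated, 1651 to 3016 at 1 day and 2329 to 2671 at 3 days, with changes of 0.08, 0.15 and -0.07. With the adipocyte score as a covariate the change of Gcnt1 at 1 day was 0.25 and passed in limma (adjusted p = 0.0379). Ltbr ranged over 668 to 1016 untreated and 686 to 1262 at 1 day, with changes of -0.02, -0.17 and -0.02. Over the 7 genes and 3 durations the log2 changes lay between -0.24 and 0.15.

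At 14 days 0 of the 9 genes passed in limma, beside 0% of all features (0 features in edgeR and 1 in DESeq2). The features with an unadjusted p under 0.05 in limma numbered 510, or 2.80% of all features, and Madcam1 was the 1 member among them. Durations were also compared with each other, and 0 of the 9 passed in limma in any of the 3 comparisons. The share of all features that passed was 0.00548% for 3 days against 1 day, 10.6% for 14 days against 1 day and 1.05% for 14 days against 3 days. Of the 9, those with an unadjusted p under 0.05 numbered 0, 1 and 0, beside 6.98%, 25.7% and 16.7% of all features. Cd34 was the member nearest to a call, at 0.23 for 14 days against 1 day (adjusted p = 0.129), and edgeR and DESeq2 called none of the 9. Comparisons with untreated share those libraries, so the values at 1, 3 and 14 days are not independent.

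In node-labelled libraries 8 of the 9 genes passed the filter of a mean normalised count of 10, and Glycam1, at 2 to 14 reads per library, did not. None of the 8 passed at 1, 3 or 14 days against untreated or at 14 against 3 days in limma, edgeR or DESeq2. The share of all features that passed was 1.21%, 1.24%, 0.791% and 0.011% in turn, and of the 8 genes 1, 2, 1 and 0 had an unadjusted p under 0.05, beside 15%, 14.8%, 11.8% and 5.84% of all features. The median log2 change of the 8 was 0.13 at 1 day, 0.05 at 3 days and -0.03 at 14 days, beside 0.00 over all features in each. Madcam1 had 808 and 865 at 1 day, 621, 788, 828 and 856 at 3 days and 577, 900.2, 590.1 and 667 at 14 days against 809, 642 and 956 untreated, and the groups overlapped. The log2 change of Cd34 was 0.04, -0.02 and 0.01, with 95% intervals of -0.23 to 0.31, -0.25 to 0.20 and -0.22 to 0.24.

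The largest log2 change there was that of Chst4, at 32.2 and 38 normalised counts in the 2 libraries at 1 day (39 and 34 reads) against 6.12, 8.82 and 15.5 untreated (6, 8 and 14 reads), which did not overlap. Its log2 change was 1.78 (SE 0.62, adjusted p = 0.18), and the adjusted p was 0.339 without 1-day replicate 1, the library with pancreas transcripts, and 0.417 without replicate 2. At 3 days Chst4 had 11, 23.9, 10.9 and 30.8 and at 14 days 45.2, 24.2, 6.86 and 24, overlapping the untreated libraries. Enpp2 had 4691, 4323, 3927 and 4656 at 3 days against 3666, 3058 and 3723 untreated, also without overlap, with a change of 0.34 (SE 0.11, adjusted p = 0.164). Fut7 did not pass, with log2 changes of 0.28, 0.36 and 0.07, and those of Gcnt1, Ltbr and Chst2 lay between -0.19 and 0.17.

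Whether NAM acted differently under the 2 labels was tested as an interaction in a fit of all 33 libraries. None of the 8 genes passed at 1, 3 or 14 days in limma, where 1.69%, 0.735% and 0.14% of all features passed, and 3, 2 and 1 of the 8 had an unadjusted p under 0.05, beside 17.1%, 13.1% and 4.85% of all features. DESeq2 called Chst4 at 1 day and Madcam1 at 3 days, and edgeR called none. For Madcam1 the change in spleen-labelled libraries minus that in node-labelled libraries was -0.77 (SE 0.31, adjusted p = 0.186) at 1 day and -0.85 (SE 0.28, adjusted p = 0.141) at 3 days. For Cd34 it was -0.48 (SE 0.17, adjusted p = 0.123) and -0.34 (SE 0.15, adjusted p = 0.307). In limma the falls in spleen-labelled libraries were thus not shown to differ from the changes in the other libraries, whereas for Madcam1 at 3 days the difference passed in DESeq2 (-0.89, adjusted p = 0.0479) and with library weights (-0.67, adjusted p = 0.0488). For Chst4 it was -1.89 (SE 0.55, adjusted p = 0.0659) at 1 day in limma. It passed in DESeq2 (-1.92, adjusted p = 0.00683), under quantile normalisation (-1.99, adjusted p = 0.0358) and with the adipocyte covariate (-2.08, adjusted p = 0.00367). In node-labelled libraries several adipocyte markers lay near 0, with Plin1 at 0 to 8.82 and Cidec at 0 to 9.51. That covariate therefore rests there in part on few reads. Over the alternatives for Chst4 at 1 day the adjusted p of the interaction ran from 0.00367 to 0.216. The joint fit shares its estimate of the spread between labels. Its SE of 0.55 for Chst4 was below the 0.62 of the node-labelled change alone. This SE can therefore be too small for the node-labelled libraries, which held 6 to 57 Chst4 reads.

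**Figure D3:**
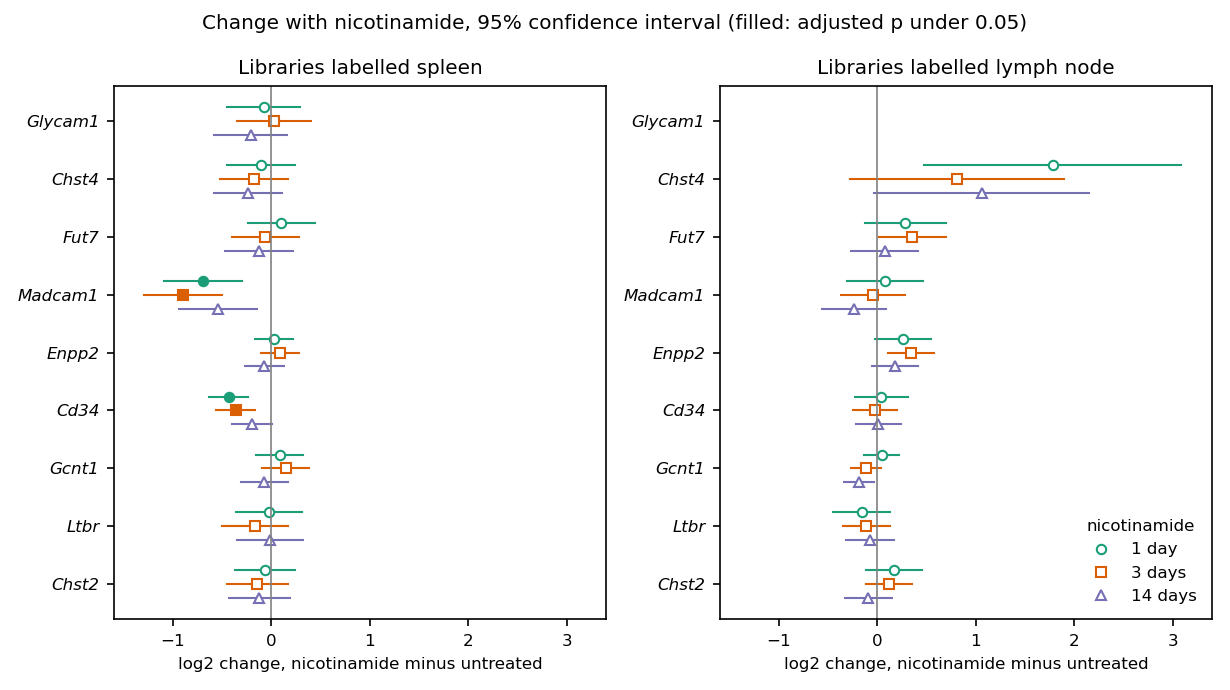
Log2 change from untreated with its 95% confidence interval for each gene at 1, 3 and 14 days of NAM, libraries labelled spleen on the left and labelled lymph node on the right, where Glycam1 was below the filter. The 4 filled symbols are the changes with an adjusted p under 0.05 in limma, all at 1 and 3 days in spleen-labelled libraries. They are Madcam1 (-0.69 and -0.89) and Cd34 (-0.44 and -0.36). The widest intervals are those of Madcam1 in spleen-labelled libraries and of Chst4 in node-labelled libraries.

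Within the libraries labelled spleen, several members varied together from library to library. Deviations of log2 values from the group means were correlated over the 20 libraries for the 36 pairs, with p-values from 100000 permutations within groups. After Benjamini-Hochberg adjustment over the pairs 20 passed, 29 were positive, and r ran from -0.75 to 0.88 with a median of 0.54. An absolute r of at least 0.54, the lowest among pairs that passed, was reached by 21 of the 36 pairs and by 14.5% of all pairs of the 18243 features tested. Glycam1 and Fut7 had Pearson r = 0.88 (adjusted p = 0.00072) and Spearman rho = 0.85 (adjusted p = 0.00117). Glycam1 and Chst4 had Pearson r = 0.86 (adjusted p = 0.00148) and Spearman rho = 0.86 (adjusted p = 0.00117). Leaving out the 2 libraries most distant from the Glycam1 median gave r of 0.84 and 0.80.

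Enpp2 and Chst2 moved with Glycam1 as well, at r = 0.83 (rho = 0.81, adjusted p = 0.00115 by permutation) and 0.83 (rho = 0.85, adjusted p = 0.00129 by permutation). Among 15526 other features, 1.87% had an r with Glycam1 of at least 0.8, and the median was 0.02. The share of features with a higher r than Fut7 was 0.264%, than Chst4 0.547%, than Chst2 1.10% and than Enpp2 1.16%. Madcam1 (17.6% higher) and Cd34 (30.6% higher), the 2 genes that fell with NAM, had r with Glycam1 of 0.53 (adjusted p = 0.0685) and 0.33 (adjusted p = 0.263) in the permutation test. Madcam1 passed with Chst2 (0.67, adjusted p = 0.00669), Enpp2 (0.61, adjusted p = 0.028) and Chst4 (0.60, adjusted p = 0.0399), and Cd34 passed with none of the other 8. Madcam1 and Cd34 had r = 0.19 with each other (adjusted p = 0.531). Of the 4 transferases, Gcnt1 and Chst2 passed with Ltbr, at r = -0.75 (rho = -0.72, adjusted p = 0.00669) and -0.60 (rho = -0.54, adjusted p = 0.0267). Chst4 (r = -0.40, adjusted p = 0.186) and Fut7 (r = -0.51, adjusted p = 0.0677) did not pass with it. With the 2 most distant libraries left out, r was 0.77 for Glycam1 and Enpp2, 0.79 for Glycam1 and Chst2 and -0.67 for Gcnt1 and Ltbr.

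**Figure D4:**
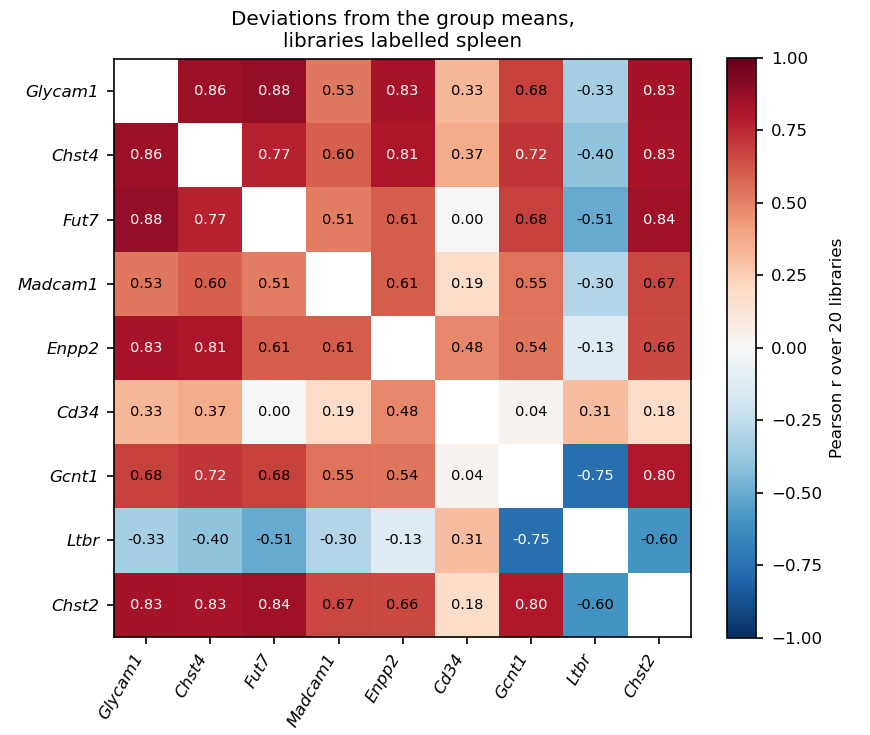
Pearson r of each pair of genes over the 20 libraries labelled spleen, from log2 values minus their group mean (red positive, blue negative). Glycam1, Chst4, Fut7, Enpp2 and Chst2 form a block of r from 0.61 to 0.88, Cd34 has no r above 0.48, and Ltbr is negative with every gene but Cd34.

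The 250 bases before the RefSeq start are shown for Glycam1 (chr15:103565082-103565331 on the minus strand) and Fut7 (chr2:25422992-25423241 on the plus strand, the more upstream of 2 starts), the pair with the highest r. Neither held a match to the 2 motifs above, so no letters are in capitals.
Glycam1: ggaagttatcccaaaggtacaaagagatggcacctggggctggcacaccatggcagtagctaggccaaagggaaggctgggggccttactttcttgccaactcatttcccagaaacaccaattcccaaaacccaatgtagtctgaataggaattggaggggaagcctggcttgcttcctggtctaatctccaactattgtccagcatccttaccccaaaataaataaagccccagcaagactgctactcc
Fut7: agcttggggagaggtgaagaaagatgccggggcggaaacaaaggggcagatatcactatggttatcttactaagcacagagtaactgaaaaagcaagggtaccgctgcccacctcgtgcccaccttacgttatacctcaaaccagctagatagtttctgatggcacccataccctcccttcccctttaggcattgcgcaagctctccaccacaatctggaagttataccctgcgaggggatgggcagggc
The features most like Glycam1 over the 20 libraries, among 15527 with a symbol, were Plvap (r = 0.95), which encodes a protein of the diaphragms of endothelial fenestrae, Ctla2a (0.93) and Pkig (0.93). Those most like Chst4 were Clu (0.91), which encodes clusterin and is abundant in follicular dendritic cells, Mcemp1 (0.89) and Pkig (0.89). Those most like Fut7 were Ucp2 (0.95), Cox7a2l (0.94) and Rpl35a (0.93), a mitochondrial carrier, a respiratory chain factor and a ribosomal protein. These r are descriptions over libraries that differ in depth and in adipocyte marker sums.

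Adipocyte transcripts moved with several members. The 11 rows of 10 adipocyte markers, 10 of them above 0 in every library labelled spleen, summed to between 34511.8 and 183689 normalised counts untreated, between 109014 and 444449 after 1 day, between 53722 and 205716 after 3 days and between 45135.6 and 225051 after 14 days, so the groups overlapped. A score, the mean log2 value of the markers, was related to each gene over the 20 libraries with 100000 permutations and adjusted over the 9 relations. Chst2 had Pearson r = -0.74 (adjusted p = 0.00126) and Spearman rho = -0.82 (adjusted p = 9e-05), the last from the smallest p that the permutations can give. Ltbr had Pearson r = 0.69 (adjusted p = 0.00237) and Spearman rho = 0.63 (adjusted p = 0.0099), the sign opposite to that of the other genes. Chst4, Madcam1, Glycam1, Gcnt1 and Fut7 also passed, with r from -0.68 to -0.54 and rho from -0.69 to -0.52, while Cd34 did not (r = -0.25, adjusted p = 0.295, and rho = -0.15, adjusted p = 0.532). Enpp2 passed by rho (-0.48, adjusted p = 0.0366) and not by r (-0.42, adjusted p = 0.0746). An absolute r of at least 0.54 with the score, the lowest of the 7 genes that passed by r, was reached by 28.4% of all features outside the marker list, 12.6% negative and 15.8% positive. Without the 2 libraries farthest from the median score, r was -0.67 for Chst2, 0.52 for Ltbr and from -0.55 to -0.41 for the other 5 that passed. Without 1-day replicate 2, the library with the highest score, Fut7 (r = -0.48, adjusted p = 0.0528) and Gcnt1 (r = -0.37, adjusted p = 0.131) no longer passed the permutation test. As deviations from group means r was 0.81 for Ltbr, 0.08 for Cd34 and from -0.80 to -0.55 for the other 7. With the score as a covariate the change of Cd34 was -0.45 at 1 day (adjusted p = 0.00459 in limma) and -0.37 at 3 days (adjusted p = 0.0172 in limma). That of Madcam1 passed at 3 days (-0.79, adjusted p = 0.00522 in limma) and not at 1 day (-0.47, adjusted p = 0.0512 in limma). Fibroblastic stroma summed to 18323 to 67407 normalised counts over the same libraries, and its part was not tested.

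**Figure D5:**
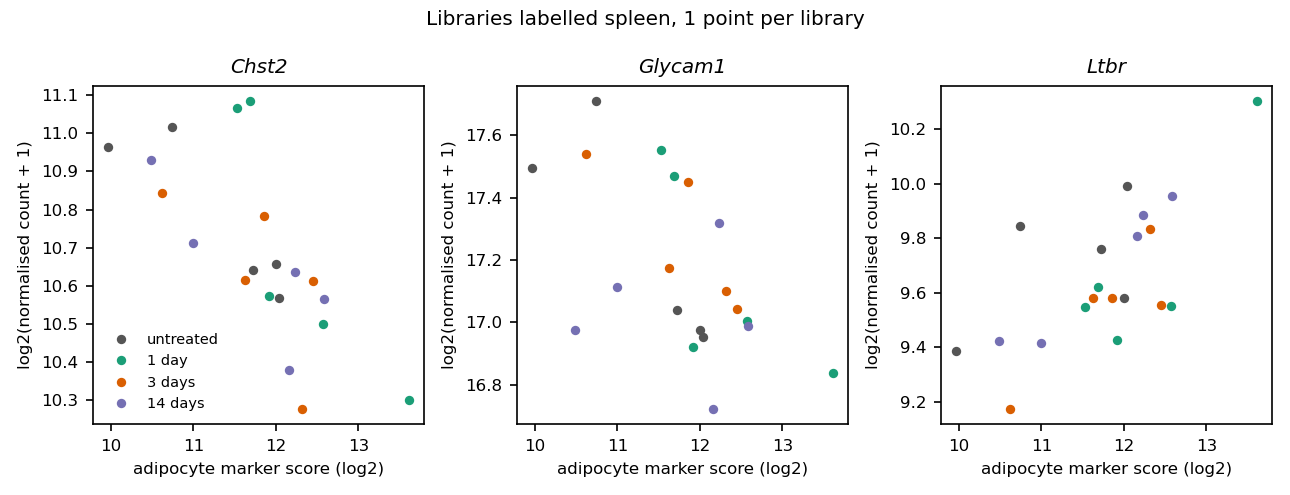
Log2(normalised count + 1) of Chst2, Glycam1 and Ltbr against the mean log2 value of adipocyte markers, 1 point per library labelled spleen, coloured by days of NAM. Chst2 (r = -0.74) and Glycam1 (r = -0.58) fall along the score and Ltbr (r = 0.69) rises, and 1-day replicate 2 has the highest score at 13.6.

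Genes around the members are given as log2 changes. The share of all features called, 16.6% at 1 day and 5.55% at 3 days, stands beside the counts of these lists, none of which is read as a result about its list. In spleen-labelled libraries at 1 day, 1 of 5 further scaffold genes rose (Cd300lg, nepmucin, 0.34, SE 0.11, adjusted p = 0.0405) and 1 fell (Spn, CD43 of leukocytes, -0.44, adjusted p = 0.0304), and none passed at 3 or 14 days. Of 8 glycosylation genes, Slc35c1, the Golgi carrier of GDP-fucose, fell at 1 day (-0.29, adjusted p = 0.0215) and at 3 days (-0.29, adjusted p = 0.0477). Of 10 further vascular adhesion and trafficking genes, 1 rose and 2 fell at 1 day, and 1 rose and 1 fell at 3 days. Vcam1 rose by 0.64 (adjusted p = 0.000872) and then 0.37 (adjusted p = 0.046), and Nr2f2, a transcription factor of venous endothelium, fell by 0.54 (adjusted p = 0.00786) and then 0.58 (adjusted p = 0.017). Of 9 lymphotoxin pathway genes, Chuk, a kinase of the pathway below Ltbr, rose at 1 day (0.26, adjusted p = 0.0457) and none passed later. Of 8 genes of lysophosphatidic acid signalling, Lpar5, a receptor, fell at 1 day (-0.37, adjusted p = 0.0138), and of 7 leukocyte partner genes none passed.

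In node-labelled libraries at 1 day, 1 of 9 vascular genes, 1 of 9 lymphotoxin pathway genes and 1 of 7 leukocyte partner genes rose, and none fell, beside 1.21% of all features called. Ccl21a, a chemokine of fibroblastic stroma and venules with near-identical copies that may share its reads, rose there by 0.90 (adjusted p = 0.0126). Its interaction with the label was -1.21 (SE 0.29, adjusted p = 0.0336). Tnfsf14, which encodes LIGHT, a ligand of Ltbr, rose by 0.43 (adjusted p = 0.0337), and Selplg, the P-selectin ligand of leukocytes, by 0.32 (adjusted p = 0.0444). At 3 days Sphk1, a kinase that makes sphingosine phosphate, fell by 1.42 (adjusted p = 0.0355), and no gene of the 6 lists passed at 14 days.

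Marker lists of other cells were followed in the same fits. Of 10 blood endothelial genes, Esam, a junction protein, rose at 1 day in spleen-labelled libraries (0.55, adjusted p = 0.00454) and none passed at 3 or 14 days. None of 4 lymphatic endothelial rows tested and none of 7 fibroblastic stroma, 5 T cell, 4 progenitor, 4 erythroid or 2 pancreas rows passed there, and 1 of 10 adipocyte rows, Retn, did at 1 day (1.61, adjusted p = 0.04). Both Pax5 rows among 6 B cell rows fell at 1 day (-0.46 and -0.47), and of 5 spleen rows Vcam1 alone passed, at 1 and 3 days. In node-labelled libraries Ccl19 of the stroma rose at 3 days (0.50, adjusted p = 0.00918), 5 of 7 erythroid genes fell at 3 days (Slc4a1, the anion exchanger of red cells, -4.38), and Hmox1 of the spleen list fell at 14 days (-0.79, adjusted p = 0.0304). No other row of the 10 marker lists passed against untreated.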

How the data were processed

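RNA (Qiagen RNeasy, TruSeq mRNA libraries, paired-end) was sequenced from organs labelled spleen or lymph node of tumour-free mice. The submitters' processing notes name FastQC, STAR 2.4.0, SAMtools, Picard, DESeq2 and mm10, and the counting strand is not given in the sources used here, so reads of overlapping genes can be shared. The authors deposited 1 table whose values are a signal, the reads of a gene over a DESeq2 size factor, scaled separately for each label, with 0 columns unmapped. Dividing by the smallest step of each library returned the reads (100.0% of values within 0.1 of a whole read). Groups and replicate numbers came from sample titles. Replicates were compared in 56 pairs, and 0 were identical (smallest chi-square per degree of freedom 8.93).

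Values were tested as log2(normalised count + 1), a scale that understates the change of low genes, with limma 3.58.1 in R 4.3.3 (intensity trend, two-sided, Benjamini-Hochberg over all features with a mean of at least 10, threshold 0.05). A fit of all 33 libraries gave the interactions. Counting error was largest for the genes at few reads, and depth is given with the results. Correlations used 100000 permutations, two-sided (Python 3.11.15, numpy 2.4.6, scipy 1.17.1). Likeness was the Pearson r of deviations from group means, with the 3 highest features named for Glycam1, Chst4 and Fut7. From each further list at most the 2 genes with the smallest p per comparison were named, and some results are not reported here. The members, lists and motifs were chosen with earlier results of these data known. Promoter bases are RefSeq's for GRCm38.p6, with 8 of 9 genes matched (Enpp2 was not). The test was checked on simulated data. Alternatives were other pseudocounts, filters, scalings, covariates and fits, count models on those reads (edgeR 4.0.16, DESeq2 1.42.0), and each library left out. Shares of all features beside the counts of members were computed after seeing the data. Thinning to equal depth was added after seeing the data.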

Additional observations from a re-analysis of the deposited data

Results flagged for a closer look

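Of 54 sets of a gene in a group of 4 or 5 libraries, 3 held a library far from the others by Dixon's test, and chance flags about 1 in 20. Madcam1 in 1-day replicate 5 labelled spleen was at 284.8 normalised counts, against 144 to 175 in the other 4 libraries. Ltbr in 1-day replicate 2 labelled spleen, the library with the highest adipocyte score (13.6), whose part was not tested, was at 1262, against 686 to 786. Gcnt1 in 3-day replicate 3 labelled lymph node was at 2431, against 2681 to 2702.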

How the results depend on the processing

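Of 3687 log2 changes recomputed under an alternative, 3659 kept their side of the threshold, 12 lost a call, 16 gained one and 0 reversed a call, and 119 changed sign where neither value passed. Of 450 counts of members called, 420 stayed. At 1 day in spleen-labelled libraries the count of 2 became 1 with just the groups compared and 1 under unadjusted p with a 1.5-fold change, and was 1 to 2 with a library left out (1 without 1-day replicate 4). With the adipocyte covariate it stayed at 2, with Cd34 kept and Gcnt1 (0.25, adjusted p = 0.0379) called in place of Madcam1. At 3 days it became 1 with no filter, 1 with just the groups compared and 1 under unadjusted p with a 1.5-fold change, and was 1 to 2 with a library left out (1 without untreated replicates 1, 2 or 5 or 3-day replicates 2, 3, 4 or 5, each time by the loss of Cd34). For 14 days against 1 day the count of 0 became 2 with the adipocyte score as covariate (Fut7 -0.36 and Gcnt1 -0.25) and was 0 to 1 with a library left out (1, Gcnt1, without 1-day replicate 2). In node-labelled libraries at 1 day it became 1 (Chst4 2.21, adjusted p = 0.0418 in limma) with that covariate, several of whose markers lay near 0 there. It also became 1 under unadjusted p with a 1.5-fold change. For the interaction at 1 day it became 1, Chst4, under quantile normalisation, the adipocyte covariate and DESeq2, and 2 under unadjusted p with a 1.5-fold change. It was 0 to 1 with a library left out (1 without 3-day replicate 1 labelled spleen or 14-day replicates 1 or 3 labelled lymph node). At 3 days it became 2 (Madcam1 and Gcnt1) with library weights, and 1 under the adipocyte covariate, DESeq2 and unadjusted p with a 1.5-fold change. At 14 days it became 1 under the adipocyte covariate and 1 under unadjusted p with a 1.5-fold change. The cause was not tested. Leaving a library out at 1 day in node-labelled libraries leaves 1 sample, assumed to vary like the other groups.

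The relation of Enpp2 to the adipocyte score passed as deviations from group means (-0.55) and ran from -0.48 to -0.35 with a library left out (passing without 14-day replicate 3 or 3-day replicate 1). That of Fut7 ran from -0.62 to -0.48 and that of Gcnt1 from -0.61 to -0.37, both lost without 1-day replicate 2. On reads scaled to the library total the ratio between labels was 4.62 for Cd34 and 0.901 for Gcnt1.

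The labels do not say whether a replicate number pairs samples. Correlations of same-numbered deviations were over 0.1 in 13 of 30 pairs labelled spleen (median 0.035) and 0 of 16 labelled lymph node (median -0.013). Differently numbered pairs were over 0.1 in 41 of 120 (median -0.008) and 2 of 46 (median 0.007). With a replicate block the members called stayed at 2 for 1 day and 2 for 3 days in spleen-labelled libraries. They stayed at 0 in every other comparison, so the block changed no call. Features called over the whole table of spleen-labelled libraries ran over the alternatives from 140 to 4722 for 3 days (1013 as reported), from 1434 to 3208 for 14 days against 1 day (1940), from 3 to 3137 for 14 against 3 days (192), from 0 to 36 for 3 days against 1 day (1) and from 0 to 3 for 14 days (0). In node-labelled libraries 221, 226 and 144 after 1, 3 and 14 days ran from 132 to 540, 161 to 557 and 55 to 381, and 2 for 14 against 3 days from 1 to 55. Interactions of 290, 126 and 24 ran from 151 to 882, 79 to 1944 and 9 to 42. Depth limits Glycam1 and Chst4 in node-labelled libraries most, at 2 to 14 and 6 to 57 reads.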

Other observations

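All 13 libraries labelled lymph node had an even number of Glycam1 reads, from 2 to 14 per library. For Chst4, 10 of the 13 had an even number. In the 20 libraries labelled spleen, the Glycam1 reads were even in 11 and odd in 9.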
